A study of Mus musculus with 9 samples.

Results

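The comparison set the 3 RNA samples of *Fzd3* mutant embryonic cerebral cortex against the 3 control samples, which together are 6 of the 9 samples of the series, over all 14670 genes listed. Samples were chosen by the genotype in their labels, and no measured value entered the choice. The *Fzd3* mutants are labelled Fzd3 -/-, the controls Control +/+ and the remaining 3 samples Celsr3 -/-, all from cortex dissected at E16.5 (embryonic day 16.5) with RNA taken in Trizol. The study's methods describe the strain of the mutants as a mixture of C57Bl/6 and CD1. Controls there are littermates that carry 1 mutant copy or none, while each control label reads +/+. The labels do not say whether each library came from 1 embryo or whether mutants and controls shared litters. Depth per library, estimated from the smallest step between deposited values, ran from 39857305 to 69600589 reads. Below, "mutants" without a name are the *Fzd3* mutants, values are CPM (reads per 1e6 reads of a library) in the order of samples 1 to 3 of a group (samples 1, 2 and 4 for the *Celsr3* mutants), and log2 changes are differences in mean log2(CPM + 0.5), a scale that understates changes of genes near or under 0.5 CPM.

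*Fzd3* encodes a Frizzled receptor and *Celsr3* a seven-pass cadherin, and both proteins act in planar cell polarity and in the guidance of long axon tracts of the forebrain. In the embryonic cortex, radial glia divide at the ventricular surface and give rise to intermediate progenitors, which divide again and produce neurons. New neurons leave the cell cycle, migrate outward, and then build axons, dendrites, ion channels and synapses. The comparison asks which of these programmes differ in their RNA when *Fzd3* is mutated. In whole tissue, fewer cells of a type and less RNA per cell cannot be told apart.

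The targeted gene itself stood at 58.0, 67.7 and 46.9 CPM in controls and 46.5, 39.8 and 59.6 CPM in mutants, which overlap (log2 change -0.24 ± 0.15 s.e., adjusted P = 0.24). With 1 library left out its change ran from -0.40 to -0.11, moving most without mutant 2, mutant 3, control 2 or control 3, and it passed the test without mutant 3 (adjusted P = 0.0457). With 1 value per gene and no value per exon, this level does not check the genotype labels. *Celsr3* stood at 196, 243 and 214 CPM in controls and 253, 213 and 255 CPM in mutants, which also overlap, and at 122, 139 and 118 CPM in *Celsr3* mutants. As a check of the tissue, *Tbr1*, a transcription factor of deep layer cortical neurons, had 344, 349 and 323 CPM in controls and 287, 277 and 279.9 CPM in mutants. Of the lists for neighbouring tissue the table held 2 of 14 choroid plexus and hem genes, 7 of 12 thalamic genes and 8 of 15 striatal genes. The choroid plexus marker *Ttr* was not in the table. The most abundant thalamic gene was the vesicular glutamate transporter *Slc17a6*, and the thalamic sums of 78.1, 72.8 and 86.3 CPM in controls and 70.4, 78.0 and 80.6 CPM in mutants overlapped. The striatal sums of 443, 449 and 438 CPM in controls and 411, 411 and 403 CPM in mutants did not, with the transcription factor *Meis2*, which cortex also expresses, the most abundant gene. Their part in the results was not tested.

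Some libraries stood apart from the others of their group. *Xist*, transcribed from the inactive X chromosome of females, was 812, 850.2 and 0.803 CPM in controls, 998, 1008 and 1147 CPM in mutants and 806, 0.744 and 806 CPM in *Celsr3* mutants, so control 3 and *Celsr3* mutant 2 lacked it while all 3 *Fzd3* mutants had it. No Y-linked gene of the list was in the table. Over the libraries with *Xist* above 100 CPM, a choice made after seeing the data, 1889 genes fell and 2015 rose. Control 2 held more RNA of the 7SK gene *Rn7sk* than controls 1 and 3, and *Celsr3* mutant 4 had the highest of the collagen and matrix sums, which were 755, 723 and 1135 CPM in the *Celsr3* mutants. On the first principal component, which held 56.9% of the variance, mutants 1 to 3 lay at 33.21, 31.91 and 26.39, controls at -15.59, -23.71 and -11.38, and *Celsr3* mutants at -8.88, -15.77 and -16.18. Mutant 3 was thus the mutant nearest the controls on this axis.

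In the mutants many genes of dividing progenitors fell and many genes of maturing neurons rose. Most listed genes of mitosis and DNA replication, of intermediate progenitors, radial glia and the Hedgehog pathway, and many ribosomal protein and splicing genes were lower. Higher were 22 of 35 listed genes for transmitter receptors, 28 of 55 for ion channels and 17 of 32 for synaptic vesicle release, with 1 fall in each list, and some markers of blood vessels and of microglia. Of the 14670 genes, 2167 (14.8%) fell and 2199 (15%) rose by limma at an adjusted P under 0.05, or 4366 (29.8%) in either direction, and the median change over all genes was -0.00. Changes were mostly small, with a median absolute log2 change of 0.37 among the genes that passed, and 75 fell and 257 rose by 2-fold or more. Of those rises, 75 were of predicted genes on chromosome 14, near-identical copies that may hold fewer separate signals. With GC content and transcript length regressed out over 14394 genes, 3008 fell and 1919 rose, so the balance between falls and rises depends on that choice. Without mutant 1, 1481 fell and 1479 rose. An exact permutation test of 3 against 3 cannot give a P below 0.1, so the calls rest on the spread that limma shares across genes.

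**Figure D1:**
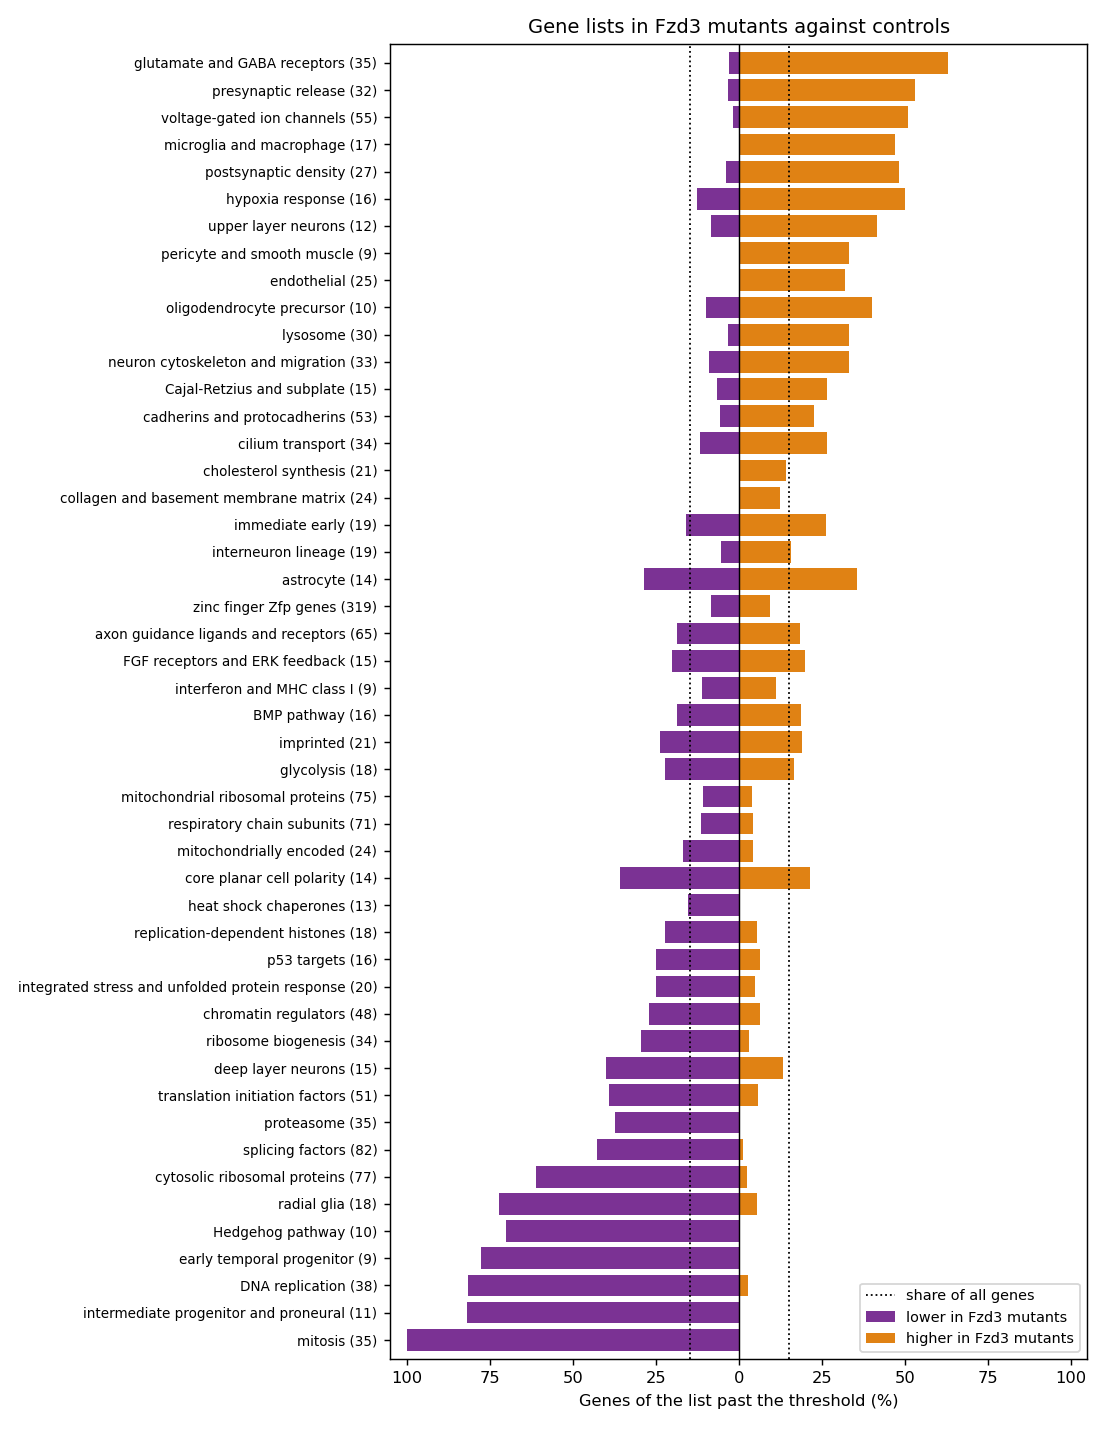
Share of each gene list, in %, that fell (bars to the left) or rose (bars to the right) in *Fzd3* mutants against controls, for lists with at least 9 genes in the table, whose number stands in brackets. Dotted lines mark the shares over all genes, 14.8% and 15%, and mitosis reaches 100% on the left.

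Mitotic genes fell without exception: of the 35 on the list, covering the spindle, kinetochore, chromosome condensation and cytokinesis, 35 fell and the median log2 change was -0.73. All 35 were well expressed (mean over the 6 libraries not under 10 CPM) and had no overlap between mutant and control libraries, as did 1756 (17.5%) of the 10030 well-expressed genes in that direction. Their summed level was 1956, 2052 and 1785 CPM in controls, 1056, 1107 and 1269 CPM in mutants and 1724, 1894 and 2049.6 CPM in *Celsr3* mutants. Mutants 1 and 2 were lowest, mutant 3 was somewhat higher but still under every control, and the mean was -40.8% against controls. *Cdc20*, the activator of the anaphase-promoting complex, fell the most of the list and had 41.0, 42.6 and 39.0 CPM in controls and 19.2, 18.6 and 21.4 CPM in mutants (log2 change -1.04 ± 0.06 s.e., adjusted P = 1.6e-06). The mutant values lay near one another and well under every control. *Top2a*, the topoisomerase that untangles chromosomes and the most abundant gene of the list, had 308, 320.5 and 262 CPM in controls and 151, 173 and 189.9 CPM in mutants (log2 change -0.79 ± 0.10 s.e., adjusted P = 2.3e-04). It too had no overlap, with mutant 3 the highest of the mutants. For the *Celsr3* mutants, which share the same controls, the median of the list was -0.02, and 35 of 35 were lower in *Fzd3* than in *Celsr3* mutants by the direct test, in which 2099 of all genes (14.3%) were lower and 2247 (15.3%) higher. With replicate number as a block, 918 of all genes were lower and 1183 higher in the direct test. Direct counts of single lists are given here and below without that block.

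Promoter sequence was read for the mitosis and replication lists, because both hold genes whose transcription in dividing cells is known to run through short promoter elements: the CHR element TTTGAA, the CCAAT box, and E2F sites, here written as TTTCGCGC or TTTGGCGC. Windows of 300 bases, from 250 before to 50 after the start site, were taken from RefSeq on GRCm38.p6, and both strands were searched. TTTGAA occurred in 24 of 31 promoters of mitosis genes (77.4%, from 30 of the 35 genes) and in 17.9% of all 32851 promoters. CCAAT occurred in 74.2% and 37.4%, and a promoter may hold both. The E2F letters occurred in 9 of 36 promoters of DNA replication genes (25.0%), 1 of 31 of mitosis genes and 0.813% of all. In the replication promoters TTTGAA occurred in 4 of 36 (11.1%), under the share of all promoters although most of these genes also fell, and CCAAT in 66.7%. Among promoters of transmitter receptor genes, most of which rose, TTTGAA occurred in 13.3% and the E2F letters in 0 of 30, and among those of presynaptic release genes in 19.4% and 0 of 31. A match describes the sequence and is neither a shown binding site nor a cause of the change. Capitals mark TTTGAA in the promoters of *Cdc20* and of the spindle checkpoint kinase gene *Bub1b*, and the E2F letters in those of *Mcm3*, a subunit of the replicative helicase, and *Uhrf1*, which keeps DNA methylation through replication, all 4 chosen after their sequences were seen. They lie at chr4:118437294-118437593 (minus strand), chr2:118597961-118598260 (plus strand), chr1:20820263-20820562 (minus strand) and chr17:56304063-56304362 (plus strand), and each is written 5′ to 3′ on the strand of its gene.
Cdc20: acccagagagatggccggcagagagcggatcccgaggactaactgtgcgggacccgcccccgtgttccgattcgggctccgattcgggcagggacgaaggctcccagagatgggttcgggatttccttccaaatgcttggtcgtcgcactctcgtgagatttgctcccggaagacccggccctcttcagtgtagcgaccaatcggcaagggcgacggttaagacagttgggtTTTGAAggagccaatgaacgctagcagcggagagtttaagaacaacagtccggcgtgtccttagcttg
Bub1b: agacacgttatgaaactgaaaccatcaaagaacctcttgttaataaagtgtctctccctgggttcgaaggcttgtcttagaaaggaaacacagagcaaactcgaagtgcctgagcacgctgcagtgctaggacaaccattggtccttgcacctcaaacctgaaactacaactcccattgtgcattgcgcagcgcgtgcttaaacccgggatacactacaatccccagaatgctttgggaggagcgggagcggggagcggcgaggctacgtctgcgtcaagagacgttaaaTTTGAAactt
Mcm3: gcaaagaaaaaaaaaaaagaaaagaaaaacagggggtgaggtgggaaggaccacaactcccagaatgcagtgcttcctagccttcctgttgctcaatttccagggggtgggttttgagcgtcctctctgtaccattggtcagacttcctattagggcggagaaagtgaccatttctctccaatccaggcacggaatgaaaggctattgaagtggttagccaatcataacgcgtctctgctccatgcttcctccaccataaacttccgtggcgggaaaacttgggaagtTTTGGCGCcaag
Uhrf1: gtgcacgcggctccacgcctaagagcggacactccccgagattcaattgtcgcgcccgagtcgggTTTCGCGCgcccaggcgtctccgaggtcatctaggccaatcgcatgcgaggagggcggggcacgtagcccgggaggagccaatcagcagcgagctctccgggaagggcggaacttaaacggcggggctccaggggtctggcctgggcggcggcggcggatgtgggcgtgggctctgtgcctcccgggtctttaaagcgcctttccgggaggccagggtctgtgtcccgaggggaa

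**Figure D2:**
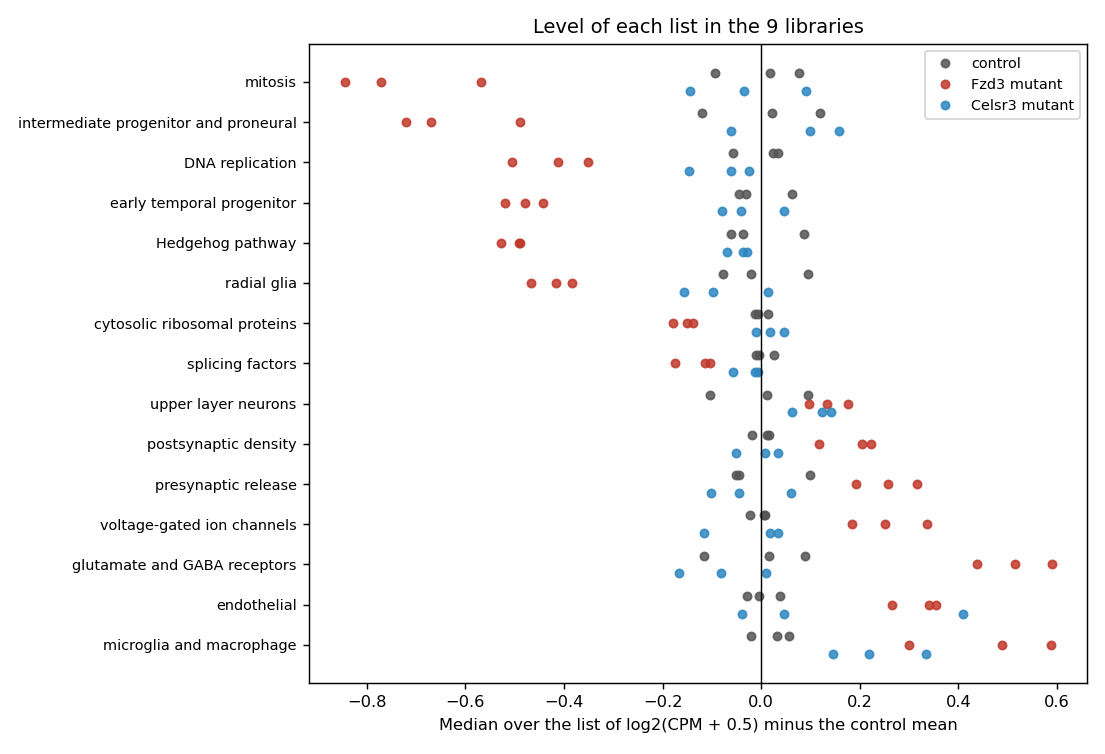
Level of 15 gene lists in each of the 9 libraries, as the median over the list of log2(CPM + 0.5) minus the control mean, with controls in grey, *Fzd3* mutants in red and *Celsr3* mutants in blue. The *Fzd3* mutant points lie left of the controls for progenitor and growth lists and right of them for synaptic, channel, vessel and microglial lists.

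The genes shown by sequence fell as well. *Bub1b* had 61.2, 62.3 and 52.7 CPM in controls and 28.6, 29.4 and 35.0 CPM in mutants (log2 change -0.91 ± 0.09 s.e., adjusted P = 7.1e-05), without overlap. *Mcm3* had 64.9, 67.8 and 65.1 CPM in controls and 32.3, 35.1 and 39.4 CPM in mutants (log2 change -0.88 ± 0.07 s.e., adjusted P = 1.6e-05), and *Uhrf1* had 66.5, 71.2 and 61.0 CPM in controls and 36.5, 35.7 and 39.5 CPM in mutants (log2 change -0.82 ± 0.07 s.e., adjusted P = 1.8e-05). DNA replication genes, which load and fire origins, copy DNA and supply nucleotides, moved with them: 31 of 38 fell and 1 rose, with a median of -0.44 (-0.06 for the *Celsr3* mutants). The origin licensing factor *Cdc6* fell the most, with 12.4, 10.6 and 10.4 CPM in controls and 4.30, 5.64 and 6.43 CPM in mutants (log2 change -0.98 ± 0.13 s.e., adjusted P = 3.5e-04). Its libraries did not overlap. The helicase subunit *Mcm7*, the most abundant of the list, had 185, 182 and 178 CPM in controls and 141, 143 and 142 CPM in mutants (log2 change -0.36 ± 0.05 s.e., adjusted P = 3.5e-04). The gene that rose was *Rpa3*, a subunit of the single-strand binding protein RPA (log2 change 0.38 ± 0.07 s.e., adjusted P = 0.00259), and this call was lost with GC content and length regressed out. Against the *Celsr3* mutants directly, 28 were lower and 0 higher. Replication-dependent histones, whose transcripts mostly lack a poly(A) tail, were low and mixed: 4 of 18 fell and 1 rose, from -1.14 for *Hist1h2al* to 0.88 for *Hist1h2bc*.

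Intermediate progenitor and proneural genes fell together: 9 of 11 fell and 0 rose, with a median of -0.61, against 0.09 for the *Celsr3* mutants. The summed level of the list was 578, 621 and 539 CPM in controls and 370.2, 394 and 427 CPM in mutants. Every mutant lay under every control, with mutant 3 again the highest. *Eomes*, the transcription factor that marks intermediate progenitors, had 181, 192 and 161 CPM in controls and 97.0, 111 and 129 CPM in mutants (log2 change -0.67 ± 0.10 s.e., adjusted P = 7.6e-04). Its mutant libraries were all under the controls. *Neurog1*, a proneural factor expressed at a low level, had 2.60, 3.45 and 1.76 CPM in controls and 0.395, 0.475 and 0.935 CPM in mutants (log2 change -1.49 ± 0.25 s.e., adjusted P = 0.00126). In the direct test 10 of the 11 were lower in *Fzd3* than in *Celsr3* mutants and 1 was higher.

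Among radial glia genes 13 of 18 fell and 1 rose, with a median of -0.42 and sums of 2613, 2792 and 2644 CPM in controls and 2255, 2312 and 2248 CPM in mutants. The groups did not overlap, but the mean of the sum moved by only -15.3%, while the most abundant member, the receptor phosphatase gene *Ptprz1*, had 659, 714 and 651 CPM in controls and 640.1, 635 and 693 CPM in mutants (log2 change -0.04 ± 0.06 s.e., adjusted P = 0.655), which overlap. The largest fall was that of *Gli3*, a transcription factor of Hedgehog signalling that patterns the dorsal forebrain, with 59.2, 77.5 and 54.6 CPM in controls and 32.2, 32.5 and 39.0 CPM in mutants (log2 change -0.86 ± 0.12 s.e., adjusted P = 5.4e-04). The extracellular matrix gene *Tnc* rose, with 154, 176 and 199 CPM in controls and 236, 232 and 222 CPM in mutants (log2 change 0.39 ± 0.10 s.e., adjusted P = 0.0146). Its call was lost without mutant 1 and without control 1. Against *Celsr3* mutants directly, 11 were lower and 3 higher.

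The Hedgehog list, which shares 1 gene with the other lists, had 7 of 10 falls and 0 rises, with a median of -0.51. Its sums were 435, 484 and 418 CPM in controls and 286, 276 and 306 CPM in mutants, with no overlap. The transcriptional effector *Gli2* fell the most, with 23.8, 30.1 and 23.7 CPM in controls and 14.8, 11.8 and 13.4 CPM in mutants (log2 change -0.93 ± 0.11 s.e., adjusted P = 1.6e-04). The coreceptor *Cdon*, the most abundant member, had 165, 176 and 153 CPM in controls and 100.5, 92.7 and 113 CPM in mutants (log2 change -0.69 ± 0.10 s.e., adjusted P = 5.3e-04). Genes of early cortical progenitors, which decline as development goes on, also fell: 7 of 9 fell and 0 rose, with a median of -0.47. The chromatin protein gene *Hmga2* had 4.16, 4.47 and 3.66 CPM in controls and 1.28, 1.30 and 1.66 CPM in mutants (log2 change -1.27 ± 0.17 s.e., adjusted P = 3.9e-04), and the histone methyltransferase gene *Ezh2* had 262, 256 and 251 CPM in controls and 172, 195 and 187 CPM in mutants (log2 change -0.47 ± 0.05 s.e., adjusted P = 1.3e-04). Both were lower in every mutant than in every control. For FGF receptors and their feedback inhibitors 3 of 15 fell and 3 rose, each a share near the 14.8% and 15% of all genes, with -0.55 for the receptor *Fgfr3*, -0.32 for the receptor *Fgfr2* and 0.74 for the inhibitor *Spry4*. Without control 1 the falls numbered 5 and without control 3 the rises numbered 5. In the BMP pathway 3 of 16 fell and 3 rose, 18.8% each way and again near the shares of all genes, from -0.79 for *Id4*, an inhibitor of differentiation, to 0.62 for the BMP and activin antagonist *Fst*.

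**Figure D3:**
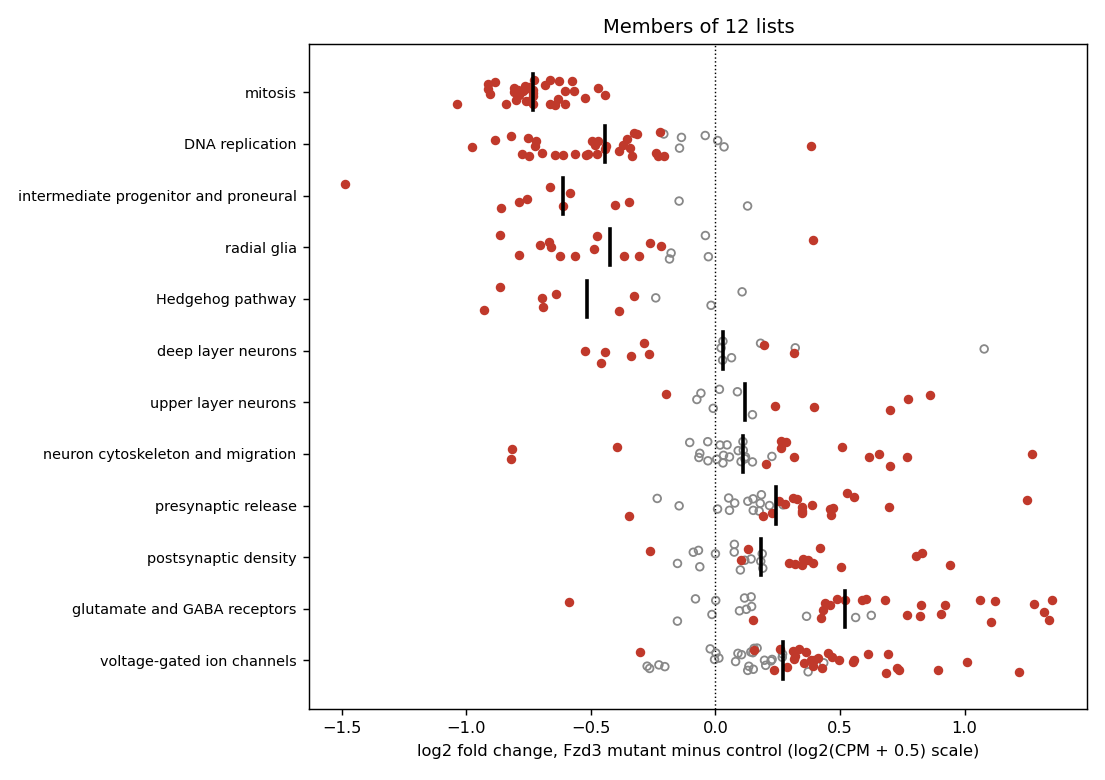
Log2 change, *Fzd3* mutant minus control, of each member of 12 lists; filled points passed the threshold, open points did not, and the black bar is the median of the list. Medians run from -0.73 for mitosis to 0.52 for glutamate and GABA receptors.

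Genes of cell growth moved in the same direction by smaller amounts. Of the cytosolic ribosomal protein genes, 47 of 77 fell and 2 rose, with a median of -0.14 (0.02 for the *Celsr3* mutants), and 54 were lower than in *Celsr3* mutants directly. *Rpl4*, the most abundant, had 1215, 1178 and 1215 CPM in controls and 1062, 1061 and 1017 CPM in mutants (log2 change -0.20 ± 0.04 s.e., adjusted P = 0.00278). Members with large changes behaved differently from the rest: *Rplp0* had 1048, 1043 and 1086 CPM in controls and 739.9, 739.6 and 489 CPM in mutants (log2 change -0.72 ± 0.13 s.e., adjusted P = 0.00175) and *Rpl29* had 107, 107 and 101 CPM in controls and 302, 295 and 202 CPM in mutants (log2 change 1.32 ± 0.12 s.e., adjusted P = 3.1e-05). In both, mutants 1 and 2 were alike and mutant 3 lay well away from them. These genes have many near-identical processed copies, so their values are uncertain. Processed pseudogenes as a class had 124 falls and 25 rises among 620, with a median of -0.12, against 1907 falls and 2036 rises among 12640 protein-coding genes. Splicing factors had 35 falls and 1 rise among 82 and a median of -0.12, with 53 falls with GC content and length regressed out. The splicing repressor *Ptbp1*, whose loss accompanies neuronal splicing, had 136, 159 and 137 CPM in controls and 96.6, 104 and 105 CPM in mutants (log2 change -0.49 ± 0.07 s.e., adjusted P = 4.9e-04), lower in each mutant. In the opposite direction, *Srsf12* rose (log2 change 0.43 ± 0.08 s.e., adjusted P = 0.00219).

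For translation initiation factors 20 of 51 fell and 3 rose, with -0.56 for the eIF2 alpha kinase gene *Eif2ak2*, and 0 rose without mutant 1, mutant 2 or control 2 and 1 without mutant 3. For ribosome biogenesis 10 of 34 fell and 1 rose, with -0.29 for the nucleolar chaperone *Npm1*, and the falls numbered 4 without mutant 1 and 6 without control 1 or control 2, while the rise was lost without any 1 library other than mutant 3. For the proteasome 13 of 35 fell and 0 rose, with 7 falls without mutant 1, mutant 2 or control 3. Chromatin regulators had 13 falls (27.1%) and 3 rises (6.25%) among 48, where 14.8% of all genes fell and 15% rose. They ran from -0.59 for the remodeller *Chd7* to 0.61 for its neuronal relative *Chd5*. Without mutant 1 or control 2 the falls among chromatin regulators numbered 7, without mutant 2 they numbered 6, and without mutant 1 there was 1 rise. Medians of these 4 lists lay between -0.13 and -0.08, against -0.00 over all genes. That of chromatin regulators was -0.07 without control 2, -0.08 without mutant 2 and -0.17 without mutant 3, and that of the proteasome -0.13 with GC content and length regressed out. In that setting the falls numbered 20 for the proteasome, 16 for ribosome biogenesis and 23 for chromatin regulators, and with a replicate block they numbered 6, 6 and 8.

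Receptors for glutamate and GABA, which carry fast and modulatory synaptic signals, mostly rose: 22 of 35 rose and 1 fell, with a median of 0.52 (-0.05 for the *Celsr3* mutants). The summed level was 2069, 1962 and 2079.5 CPM in controls, 2608, 2574 and 2491 CPM in mutants and 2044, 2022 and 1898 CPM in *Celsr3* mutants. All 3 mutants exceeded all 6 other libraries. *Gria2*, the AMPA receptor subunit that sets calcium permeability and the most abundant member, had 559, 481 and 526 CPM in controls and 664, 732 and 705 CPM in mutants (log2 change 0.43 ± 0.06 s.e., adjusted P = 7.2e-04). The largest rise was that of *Grm2*, a presynaptic metabotropic receptor, with 8.82, 8.87 and 9.83 CPM in controls and 28.0, 26.1 and 19.3 CPM in mutants (log2 change 1.35 ± 0.14 s.e., adjusted P = 7.7e-05). Neither gene overlapped between groups. The fall was that of the NMDA receptor subunit *Grin3b* (log2 change -0.59 ± 0.20 s.e., adjusted P = 0.047), and it did not pass without mutant 1, mutant 2, control 2 or control 3. By the direct test 26 were higher and 1 lower in *Fzd3* than in *Celsr3* mutants.

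Voltage-gated ion channel genes, which shape firing, had 28 rises and 1 fall among 55, with a median of 0.27. The potassium channel *Kcnh1* rose the most, with 0.173, 0.213 and 0.477 CPM in controls and 1.79, 1.19 and 1.03 CPM in mutants (log2 change 1.22 ± 0.22 s.e., adjusted P = 0.00205), while the most abundant member, the calcium channel subunit *Cacnb3*, had 209, 215 and 209 CPM in controls and 215, 210.2 and 208 CPM in mutants, which overlap. The gene that fell was the potassium channel *Kcnq3* (log2 change -0.30 ± 0.07 s.e., adjusted P = 0.0104), and this call was lost under an ordinary test of the gene alone. For presynaptic release 17 of 32 rose and 1 fell, with a median of 0.24 and sums of 3512, 3499.9 and 3779 CPM in controls and 4709.6, 4499.9 and 4281 CPM in mutants. Every mutant was above every control. *Syt4*, a synaptotagmin of dense-core vesicles, was both the most abundant and the most increased, with 233, 194 and 274 CPM in controls and 584, 553 and 518 CPM in mutants (log2 change 1.25 ± 0.13 s.e., adjusted P = 6.9e-05). The vesicular glutamate transporter *Slc17a7* fell instead, with 53.8, 63.2 and 64.5 CPM in controls and 51.8, 46.6 and 43.9 CPM in mutants (log2 change -0.35 ± 0.09 s.e., adjusted P = 0.0142). Its call was lost without control 2. In the postsynaptic list 13 of 27 rose and 1 fell (median 0.18). The median was 0.12 without mutant 1 and 0.11 with GC content and length regressed out, where 3 fell. Calcium/calmodulin kinase gene *Camk2b* had 262, 232 and 264 CPM in controls and 452, 445 and 426 CPM in mutants (log2 change 0.81 ± 0.07 s.e., adjusted P = 3.5e-05), and the scaffold gene *Dlg2* had 97.5, 95.5 and 99.1 CPM in controls and 196, 183 and 184 CPM in mutants (log2 change 0.94 ± 0.06 s.e., adjusted P = 2.7e-06). Both separated mutants from controls. The scaffold gene *Homer3* fell (log2 change -0.26 ± 0.05 s.e., adjusted P = 0.00278). Direct comparison with *Celsr3* mutants gave 29 channel genes, 21 presynaptic genes and 13 postsynaptic genes higher, and 1, 0 and 2 lower.

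Neuronal cytoskeleton and migration genes had 11 rises and 3 falls among 33 (median 0.11). The neurofilament gene *Nefl* rose the most, with 30.7, 28.3 and 35.1 CPM in controls and 77.4, 79.2 and 71.6 CPM in mutants (log2 change 1.27 ± 0.09 s.e., adjusted P = 5.8e-06). It lies on the chromosome of *Fzd3*. In the other direction *Rnd2*, a small GTPase that newborn neurons need to migrate, had 106, 109.9 and 112 CPM in controls and 61.0, 60.6 and 63.5 CPM in mutants (log2 change -0.82 ± 0.05 s.e., adjusted P = 9.4e-07). The tubulin gene *Tuba1a*, the most abundant, did not pass (log2 change 0.05 ± 0.07 s.e., adjusted P = 0.647). Of the axon guidance genes 12 of 65 fell and 12 rose, which is 18.5% each way and near the 14.8% and 15% of all genes, with a median of 0.06, and 6 fell without control 2. The median was 0.03 without control 1 or with GC content and length regressed out and 0.04 without mutant 1. They ran from -0.97 for the semaphorin *Sema5a* to 1.51 for the ephrin receptor *Epha6*, which had 0.983, 1.23 and 2.63 CPM in controls and 6.88, 4.86 and 4.22 CPM in mutants. Cadherins and protocadherins, which mediate cell adhesion, had 12 rises (22.6%) and 3 falls (5.66%) among 53, with 7 rises without mutant 1. Their largest change was that of the type II cadherin *Cdh9* (log2 change 1.47 ± 0.25 s.e., adjusted P = 0.0014). In the core planar cell polarity list, to which *Celsr3* belongs, 5 of 14 fell (35.7%) and 3 rose (21.4%), against 14.8% and 15% of all genes. The median was -0.09, and the sums of 1115, 1361 and 1122 CPM in controls and 1104, 999 and 1133 CPM in mutants overlapped. The seven-pass cadherin *Celsr1* had 137, 193 and 141 CPM in controls and 98.8, 87.5 and 111 CPM in mutants (log2 change -0.65 ± 0.12 s.e., adjusted P = 0.00271), and the intracellular component *Prickle2* had 33.7, 32.2 and 33.5 CPM in controls and 61.6, 52.6 and 48.4 CPM in mutants (log2 change 0.70 ± 0.08 s.e., adjusted P = 1.9e-04). Without control 2, 3 of the list fell, and 1 rose without mutant 1, control 1 or control 2.

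Markers of neuron types moved both ways. Over all genes 14.8% fell and 15% rose. Shares that fell and rose were 8.33% and 41.7% for upper layer genes and 40% and 13.3% for deep layer genes. They were 6.67% and 26.7% for Cajal-Retzius and subplate genes and 5.26% and 15.8% for interneuron genes. For striatal genes they were 25% and 12.5%. Rises of deep layer, interneuron and striatal genes were thus near the share of all genes. Upper layer genes had 5 rises and 1 fall among 12, with a median of 0.12 (0.13 for the *Celsr3* mutants) and sums of 1713, 1822 and 1618 CPM in controls and 2109, 2057 and 2099.5 CPM in mutants. Among them the activin subunit *Inhba* rose (log2 change 0.86 ± 0.14 s.e., adjusted P = 0.00115). The fall, that of the adhesion gene *Mdga1* (log2 change -0.20 ± 0.06 s.e., adjusted P = 0.034), was lost without mutant 2, mutant 3, control 1 or control 2. Deep layer genes had 6 falls and 2 rises among 15, with a median of 0.03, which changed sign with 1 library left out, and sums of 1977, 2018 and 1783 CPM in controls and 1710.1, 1663 and 1761 CPM in mutants. The transcription factors *Sox5* (log2 change -0.52 ± 0.11 s.e., adjusted P = 0.0044) and *Tbr1* (log2 change -0.27 ± 0.05 s.e., adjusted P = 0.00345) fell in this list, and 1 gene rose without mutant 1, mutant 2 or control 2. For Cajal-Retzius and subplate genes 1 of 15 fell and 4 rose, from -0.84 for the lysophosphatidic acid receptor *Lpar1* to 0.85 for the subplate marker *Ctgf*. Interneuron genes had 1 fall and 3 rises among 19, with 5 rises without mutant 3 and 0 falls without any 1 library other than control 1, and the interneuron transcription factor *Dlx1* had 85.9, 84.4 and 98.1 CPM in controls and 95.5, 88.5 and 73.5 CPM in mutants, which overlap. Directly against *Celsr3* mutants, whose own median against controls was -0.18, 10 interneuron genes were higher. Of the striatal genes present 2 of 8 fell and 1 rose, with 1 fall without any 1 library other than control 1 and 0 rises without any 1 other than control 3. Of the thalamic genes 2 of 7 fell and 0 rose, with 0 falls without mutant 2, 1 without mutant 1, mutant 3, control 1 or control 3, and 1 rise without mutant 1. Of the 2 choroid plexus and hem genes present 0 fell and 1 rose, with 1 fall without mutant 3 or control 3. The gene that rose was *Rspo2*, an enhancer of Wnt signalling, with 3.29, 2.18 and 3.64 CPM in controls and 11.4, 9.61 and 10.2 CPM in mutants. The other and more abundant gene, *Rspo3*, changed the other way without passing. It had 28.8, 29.9 and 23.1 CPM in controls and 19.9, 19.7 and 23.6 CPM in mutants, which overlap (log2 change -0.36 ± 0.13 s.e., adjusted P = 0.0504).

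Some markers of blood vessels and of microglia rose. Endothelial markers had 8 rises and 0 falls among 25, a median of 0.36 (0.15 for the *Celsr3* mutants), and sums of 339, 336 and 348 CPM in controls and 441, 429 and 385 CPM in mutants. The *Celsr3* mutants had sums of 348, 325 and 417 CPM, with *Celsr3* mutant 4 above *Fzd3* mutant 3. The list median of *Celsr3* mutant 4, 0.409, was above those of the *Fzd3* mutants, 0.340, 0.354 and 0.265. Sums of mutants and controls did not overlap, though the most abundant marker, the glucose transporter *Slc2a1*, had 47.3, 48.2 and 46.9 CPM in controls and 58.9, 54.6 and 41.7 CPM in mutants, which did, and it passed the test without mutant 3. Rises numbered 5 without mutant 1, mutant 2 or control 2, 4 under an ordinary test of each gene alone, and 5 among the 16 markers with a mean of at least 5 CPM, whose median was 0.22. For pericytes and smooth muscle 0 of 9 fell and 3 rose, with 0.76 for the pericyte marker *Higd1b*. Pericyte sums were 90.2, 90.1 and 93.4 CPM in controls and 113, 114 and 103 CPM in mutants. In *Celsr3* mutants they were 99.4, 90.2 and 122 CPM, with *Celsr3* mutant 4 above every *Fzd3* mutant. Microglia and macrophage markers had 8 rises and 0 falls among 17, and 0 of the 17 had a negative change (median 0.46, and 0.22 for the *Celsr3* mutants). Sums were 101, 103 and 105 CPM in controls, 157, 154 and 123 CPM in mutants and 111, 119.7 and 142 CPM in *Celsr3* mutants, so mutants 1 and 2 were highest and mutant 3 lay within the range of the *Celsr3* mutants. The receptor gene *Trem2* had 1.02, 1.43 and 1.05 CPM in controls and 3.16, 3.07 and 2.29 CPM in mutants (log2 change 1.00 ± 0.17 s.e., adjusted P = 0.00128). The markers *Tmem119*, *Pf4*, *Spi1* and *Irf8* were not in the table. Rises numbered 3 without mutant 1, 4 without control 2 and 5 without mutant 2 or control 1 or under an ordinary test. Direct comparison gave 5 endothelial and 3 microglial genes higher than in *Celsr3* mutants.

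Oligodendrocyte precursor genes had 4 rises and 1 fall among 10, but 1 rise without mutant 1, mutant 2 or control 1 and 2 without control 2, and 0 falls without mutant 1, mutant 2 or control 1. The transcription factor *Olig1* had 4.47, 4.55 and 6.85 CPM in controls and 14.8, 12.6 and 8.29 CPM in mutants (log2 change 1.08 ± 0.22 s.e., adjusted P = 0.00375), without overlap. Astrocyte genes had 4 falls and 5 rises among 14, with 2 rises without mutant 1, mutant 2, control 1 or control 2 and 3 without mutant 3. The secreted chaperone *Clu*, on the chromosome of *Fzd3*, had 17.1, 16.0 and 17.2 CPM in controls and 30.8, 33.0 and 25.2 CPM in mutants (log2 change 0.80 ± 0.10 s.e., adjusted P = 2.1e-04). Among meningeal fibroblast genes 0 of 7 fell and 1 rose, and among collagens and matrix 0 of 24 fell and 3 rose, with 1 rise without mutant 1, mutant 3, control 1 or control 3. These rises, 14.3% and 12.5%, were near the 15% of all genes. The meningeal gene that rose, the proteoglycan *Ogn*, had 0.636, 0.378 and 0.527 CPM in controls and 2.11, 2.57 and 2.14 CPM in mutants (log2 change 1.46 ± 0.33 s.e., adjusted P = 0.00731). Its change was 1.24 for the *Celsr3* mutants, the mutants did not differ by the direct test at the threshold (adjusted P = 0.665), and its call was lost under an ordinary test of the gene alone. Blood content varied within groups, with red cell sums of 1767, 1919.6 and 2041 CPM in controls and 2288, 2445 and 1570.2 CPM in mutants. Of the red cell genes 1 of 8 fell (12.5%, near the 14.8% of all genes) and 0 rose, with 0 falls without any 1 library other than control 3 and 1 rise without mutant 3. The part of blood content in the vessel and microglial values was not tested. For interferon and MHC class I genes 1 of 9 fell and 1 rose, 11.1% each way and under the shares of all genes. The gene that rose, the class I heavy chain *H2-D1*, had 13.7, 5.60 and 5.59 CPM in controls and 19.7, 19.7 and 19.6 CPM in mutants and 4.79, 4.25 and 5.38 CPM in *Celsr3* mutants, with control 1 above the other controls. This locus differs in sequence between mouse strains, and the strain at it is not known for any sample.

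Metabolic, stress and other lists are read against the shares of all genes, 14.8% for falls and 15% for rises. For mitochondrial ribosomal proteins 8 of 75 fell and 3 rose (3 to 5 falls without any 1 library, 0 rises without control 3 and 1 without mutant 1 or mutant 2), for respiratory chain subunits 8 of 71 fell and 3 rose (4 falls without mutant 2 and 5 without mutant 1, control 1 or control 3), and for mitochondrially encoded genes 4 of 24 fell and 1 rose (2 falls without mutant 1, mutant 2 or control 2). Lysosomal genes had 10 rises and 1 fall among 30, from -0.50 for the cholesterol carrier *Npc2* to 0.65 for acid alpha-glucosidase, *Gaa*. Hypoxia response genes had 8 rises and 2 falls among 16, with 0.70 for *Ankrd37*. The falls were those of *Mxi1* and of the most abundant member, *Bnip3l* (-0.21). Sums of the list, 1051, 1004 and 994 CPM in controls and 1088, 1094 and 1005 CPM in mutants, overlapped. In glycolysis 4 of 18 fell and 3 rose, with 8 rises without mutant 3. The hexokinase *Hk2* had 14.5, 14.8 and 14.1 CPM in controls and 9.01, 8.75 and 8.25 CPM in mutants (log2 change -0.71 ± 0.09 s.e., adjusted P = 1.9e-04), and the phosphofructokinase *Pfkp* had 61.8, 52.5 and 80.3 CPM in controls and 113, 110.3 and 121 CPM in mutants (log2 change 0.84 ± 0.13 s.e., adjusted P = 8.8e-04). Neither gene had overlapping groups. For cholesterol synthesis 0 of 21 fell and 3 rose, with 0.36 for *Hmgcs1*, which makes HMG-CoA, and 3 fell without mutant 3. Among immediate early genes 3 of 19 fell and 5 rose, with 3 rises without mutant 1 or mutant 2, and the activity-induced transcription factor *Egr1* had 1.54, 1.41 and 1.50 CPM in controls and 4.76, 4.95 and 2.60 CPM in mutants (log2 change 1.17 ± 0.20 s.e., adjusted P = 0.00136). For cilium transport 4 of 34 fell and 9 rose, with 5 rises without mutant 2 and 4 without control 2, and with 2 falls without mutant 1, mutant 2 or control 2 and 1 without mutant 3. Stress and unfolded protein response genes had 5 falls and 1 rise among 20 (3 falls without mutant 1, control 1 or control 2, 0 rises without mutant 1, mutant 2 or control 2 and 2 without mutant 3 or control 3), heat shock chaperones 2 falls and 0 rises among 13, and p53 targets 4 falls and 1 rise among 16 (1 fall without mutant 1 or mutant 2 and 2 without control 2, 0 rises without mutant 2, control 2 or control 3 and 2 without mutant 3). Zinc finger genes with Zfp symbols had 27 falls and 30 rises among 319, with 17 rises without mutant 1 or control 2 and 18 without mutant 2, and with 51 falls and 16 rises with GC content and length regressed out. Imprinted genes had 5 falls and 4 rises among 21, with 2 rises without mutant 1, mutant 2 or control 1. With GC content and length regressed out the falls numbered 15 for mitochondrial ribosomal proteins, 9 for mitochondrially encoded genes and 5 for heat shock chaperones. With a replicate block they numbered 4 for mitochondrial ribosomal proteins, 5 for respiratory chain subunits, 2 for cilium transport and 3 for the stress response.

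Well-expressed genes whose libraries did not overlap, meaning a mean of at least 10 CPM over the 6 libraries, a passed test and all 3 mutants on the same side of all 3 controls, numbered 3187 of 10030, of which 1756 fell and 1431 (14.3%) rose. At any level of expression and without the test, 3253 genes (22.2%) had all mutants under all controls and 3170 (21.6%) had all mutants above them. Changes of 2-fold or more were few among these 3187 genes, with 32 falls and 89 rises, and 32 of those rises were of the predicted genes on chromosome 14. Predicted genes, clone names and pseudogenes made up 177 of the 1756 falls and 112 of the 1431 rises. Without mutant 1 the counts were 1230 and 1002, the lowest of any library left out. With all columns rescaled to the same sum they were 1544 falls and 1559 rises. With GC content and length regressed out they were 2176 and 1188, so the balance depends on these choices.

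Outside the predicted genes, clones, pseudogenes, Notch ligands and Wnt genes, the largest fall was shared by a pair of entries with the same symbol, *Metazoa_SRP*, copies of the signal recognition particle RNA, at 8.13, 42.5 and 7.95 CPM in controls and 3.86, 2.89 and 4.18 CPM in mutants (log2 change -1.83 ± 0.49 s.e., adjusted P = 0.0157). Control 2 stood far above the other controls, and the change was -1.06 without it, while without mutant 2 the call was lost. *Rn7sk*, the RNA that holds the elongation kinase P-TEFb inactive, had 11.1, 41.6 and 8.83 CPM in controls and 4.25, 4.47 and 4.39 CPM in mutants (log2 change -1.77 ± 0.41 s.e., adjusted P = 0.0086), and again control 2 was highest, with a change of -1.10 without it. Both reached the mean of 10 CPM only through control 2. These RNAs lack a poly(A) tail and have many genomic copies, so their values are uncertain. *Jmjd7*, a lysyl hydroxylase gene, had 31.1, 30.2 and 33.0 CPM in controls and 7.34, 6.18 and 22.1 CPM in mutants (log2 change -1.59 ± 0.34 s.e., adjusted P = 0.00517). Mutant 3 lay between the other mutants and the controls. Under an ordinary test of each gene alone, the calls of *Metazoa_SRP*, *Rn7sk* and *Jmjd7* were lost. *Tpm3-rs7*, a copy of a tropomyosin gene, had 103, 65.4 and 68.6 CPM in controls and 27.8, 27.5 and 25.6 CPM in mutants (log2 change -1.50 ± 0.19 s.e., adjusted P = 3.0e-04). The cartilage collagen gene *Col2a1*, which radial glia also express, had 21.5, 39.9 and 32.0 CPM in controls and 10.2, 10.8 and 10.8 CPM in mutants (log2 change -1.47 ± 0.23 s.e., adjusted P = 0.00101). Mutants were near one another in both genes and controls were spread. *Tbc1d4*, a Rab GTPase-activating protein of glucose transporter traffic, had 23.0, 20.3 and 17.7 CPM in controls and 8.27, 7.62 and 7.03 CPM in mutants (log2 change -1.35 ± 0.10 s.e., adjusted P = 5.8e-06).

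The steadiest of the large falls was that of *Esd*, esterase D, with 122, 112 and 121 CPM in controls and 44.9, 48.2 and 46.2 CPM in mutants and 111, 117 and 121 CPM in *Celsr3* mutants (log2 change -1.34 ± 0.05 s.e., adjusted P = 2.4e-08). All 3 mutants stood under all 6 other libraries, and the direct difference from *Celsr3* mutants was -1.32 (adjusted P = 7.9e-08). *Glo1*, the glyoxalase that detoxifies methylglyoxal, had 150.4, 143 and 144 CPM in controls and 63.8, 65.7 and 59.8 CPM in mutants (log2 change -1.20 ± 0.19 s.e., adjusted P = 0.00103) and 139, 73.8 and 71.3 CPM in *Celsr3* mutants. There *Celsr3* mutant 1 was at the control level and the other *Celsr3* mutants near the *Fzd3* level. The reason for this split was not tested, and the strain at this gene is not known for any sample. The imprinted gene *Grb10*, an adaptor that restrains insulin signalling, had 165, 175 and 137 CPM in controls and 74.8, 81.7 and 80.3 CPM in mutants (adjusted P = 8.0e-05), without overlap. *Zfp521*, a zinc finger transcription factor of neural progenitors, also fell (log2 change -1.02 ± 0.11 s.e., adjusted P = 1.2e-04). The remaining falls were those of the mitotic gene *Fam64a* (-1.10), the rhomboid-like gene *Rhbdl3* (-1.02) and *Tmsb15l* (-1.02), of the actin-binding thymosin family, beside *Cdc20*. Against the controls the *Celsr3* mutants gave -0.15, 0.04 and 0.17 for these 3 genes.

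**Figure D4:**
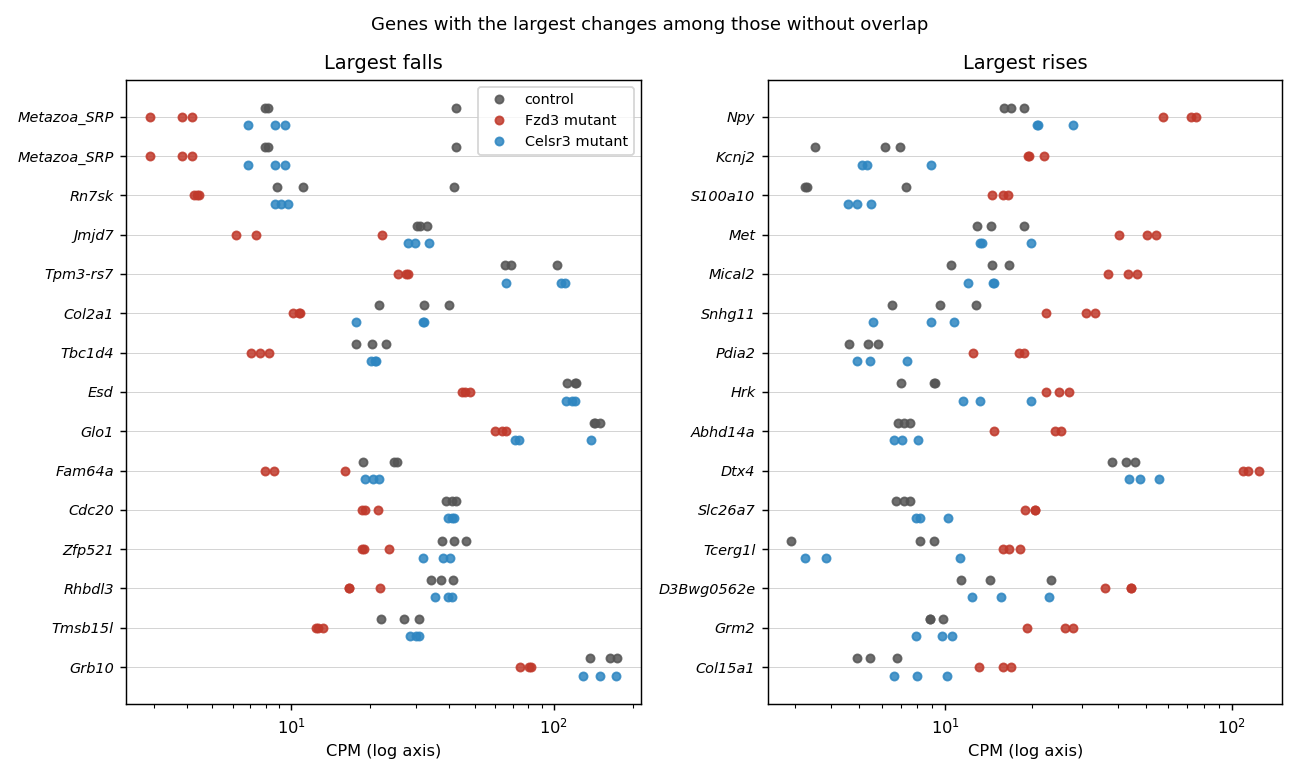
Level in CPM, on a log axis, of the 15 genes with the largest falls (left) and the 15 with the largest rises (right) among well-expressed genes without overlap, leaving out predicted genes, clones, pseudogenes, Notch ligands and Wnt genes, with controls in grey, *Fzd3* mutants in red and *Celsr3* mutants in blue. Blue points lie near the grey ones for most genes, with *Glo1* an exception.

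Because the filter of 10 CPM is a mean over mutants and controls, a change can itself carry a gene past it: of the 15 largest rises, 10 had a control mean under 10 CPM, and of the 15 largest falls, 4 had a mutant mean under 10 CPM. With the same genes left out as for the falls, the largest rise was that of *Npy*, neuropeptide Y, with 16.0, 18.8 and 17.0 CPM in controls and 75.2, 72.2 and 57.3 CPM in mutants (log2 change 1.94 ± 0.13 s.e., adjusted P = 2.5e-06). All mutants exceeded all 6 other libraries, and the direct difference from *Celsr3* mutants was 1.53 (adjusted P = 2.3e-05). *Met*, the receptor of hepatocyte growth factor, had 14.5, 12.9 and 18.8 CPM in controls and 50.6, 54.6 and 40.2 CPM in mutants (log2 change 1.63 ± 0.17 s.e., adjusted P = 9.6e-05). *Kcnj2*, an inward rectifier potassium channel, had 6.15, 3.50 and 6.97 CPM in controls and 19.7, 22.0 and 19.4 CPM in mutants (log2 change 1.84 ± 0.23 s.e., adjusted P = 2.6e-04). Neither showed overlap. *S100a10*, which pairs with annexin A2 and is used as a marker of some corticostriatal neurons, had 3.29, 3.24 and 7.32 CPM in controls and 16.6, 16.0 and 14.6 CPM in mutants (log2 change 1.75 ± 0.23 s.e., adjusted P = 3.3e-04). *Dtx4*, a ubiquitin ligase of the Deltex family linked to Notch, had 42.9, 38.0 and 46.1 CPM in controls and 125, 114 and 109.7 CPM in mutants (log2 change 1.45 ± 0.09 s.e., adjusted P = 1.9e-06). The mutants of both genes stood clear of the controls.

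*Mical2*, an actin-oxidising enzyme, had 14.5, 10.4 and 16.7 CPM in controls and 46.9, 43.3 and 36.9 CPM in mutants (log2 change 1.59 ± 0.15 s.e., adjusted P = 5.1e-05). *Hrk*, a pro-apoptotic BH3-only gene of neurons, had 9.17, 7.01 and 9.21 CPM in controls and 24.9, 27.1 and 22.4 CPM in mutants (log2 change 1.50 ± 0.17 s.e., adjusted P = 1.5e-04), and a value of 0.75 for the *Celsr3* mutants against controls. Its direct difference between the mutant lines was 0.75 (adjusted P = 0.00793). *D3Bwg0562e*, now called *Plppr4* and a membrane protein of glutamatergic synapses, had 14.4, 11.4 and 23.3 CPM in controls and 44.4, 44.4 and 36.1 CPM in mutants (log2 change 1.38 ± 0.25 s.e., adjusted P = 0.00196). Other large rises were those of the noncoding snoRNA host *Snhg11* (1.57), the disulfide isomerase *Pdia2* (1.54), *Abhd14a* (1.48), the anion transporter *Slc26a7* (1.43), the basement membrane collagen *Col15a1* (1.35) and the receptor *Grm2*. *Tcerg1l* also belonged to them, with 8.15, 2.91 and 9.13 CPM in controls and 18.2, 16.6 and 15.9 CPM in mutants (log2 change 1.40 ± 0.43 s.e., adjusted P = 0.0304), but its call was lost without any 1 of the mutants and without control 2.

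The most abundant genes that separated the groups moved by little. *Eef1a1* and *Eef2*, the translation elongation factors, had log2 changes of -0.19 and -0.24, the chaperone *Hsp90ab1* -0.19, the splicing regulator *Hnrnpa1* -0.26 and beta-actin, *Actb*, -0.28. The call of *Eef1a1* was lost without mutant 1, mutant 3, control 1 or control 3. On the rising side were the microtubule regulator *Stmn1* (0.20), the neuronal membrane glycoprotein *Gpm6a* (0.37), *Nrep* (0.20), the axonal microtubule protein *Mapt* (0.31) and the repressor *Zbtb18* (0.25). The call of *Stmn1* was lost without mutant 1, mutant 2, control 1 or control 2. *Mapt* had 1046, 993 and 1114 CPM in controls and 1376, 1292 and 1253 CPM in mutants, and *Eef2* had 2564, 2716 and 2593 CPM in controls and 2284, 2201 and 2200.2 CPM in mutants. Neither overlapped.

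Genes on chromosome 14, which carries *Fzd3* at 65192449 to 65262463 of GRCm38, were described after their values were seen. Of 580 genes there 44.3% passed the test, against 29.3% of 13826 genes elsewhere, and without predicted genes, clones and pseudogenes the shares were 37.9% of 425 genes and 30.8%. Rises of predicted genes at the far end made up much of the difference, since 75 genes with Gm symbols rose 2-fold or more at positions from -62.2 to -45.6 Mb relative to *Fzd3*. They are near-identical copies, so how many separate signals they hold is uncertain. *Gm10406*, on this chromosome, had 5.93, 6.83 and 7.60 CPM in controls and 63.9, 70.9 and 98.3 CPM in mutants and 8.62, 8.22 and 10.3 CPM in *Celsr3* mutants (log2 change 3.41 ± 0.15 s.e., adjusted P = 1.0e-07), without overlap. *Gm9625*, on chromosome 13, had 3.35, 3.43 and 3.41 CPM in controls and 35.7, 31.8 and 59.4 CPM in mutants (log2 change 3.40 ± 0.18 s.e., adjusted P = 5.7e-07). Among the 15 largest falls, *Tpm3-rs7*, *Tbc1d4* and *Esd* lie on chromosome 14. In the mutants this chromosome may carry strain sequence linked to the mutation, which cannot be told apart from an effect of the mutation.

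**Figure D5:**
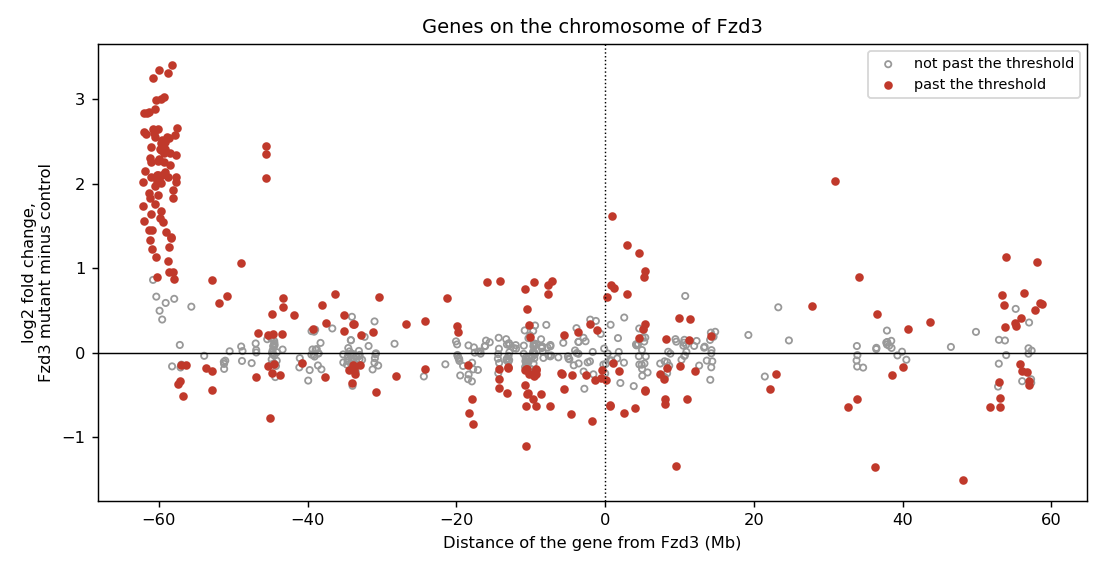
Log2 change, *Fzd3* mutant minus control, of each gene on chromosome 14 against its distance from *Fzd3* in Mb, with filled points past the threshold. A dense group of rises lies from -62.2 to -45.6 Mb.

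The *Celsr3* mutants share the controls with the *Fzd3* mutants, so values against controls are given side by side and the mutants were compared directly. Mitosis, intermediate progenitor, receptor and presynaptic lists had medians of -0.02, 0.09, -0.05 and -0.04 for *Celsr3* mutants, where the *Fzd3* mutants had -0.73, -0.61, 0.52 and 0.24. Against the controls 45 genes (0.307%) passed for the *Celsr3* mutants by limma, with 800 at an unadjusted P under 0.05, and 6067 did so for the *Fzd3* mutants. Upper layer markers had a median of 0.12 for *Fzd3* and 0.13 for *Celsr3* mutants, and 3 of 12 were higher and 1 lower in the direct test. For *Eomes* the direct difference was -0.76 (adjusted P = 4.1e-04), and for *Gria2* it was 0.39 (adjusted P = 0.00139).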

How the data were processed

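RNA sequencing of 9 mouse E16.5 cortex libraries, 3 each of control, *Fzd3* mutant and *Celsr3* mutant, was deposited by the authors as 1 table of CPM for 14670 genes, and the submitters' notes name Cufflinks 2.1.1, edgeR 2.12 and the builds GRCm38 and GRCh37. All values are at or above a mean of 0.540 CPM over the 9 libraries, so a filter at 0.5 CPM removed no gene. Depth was estimated from the smallest step between values in each library, and ran from 39857305 to 69600589 reads with values taken as whole multiples within 0.1. A floor of 3 reads was 0.0427 to 0.0752 CPM, which covers counting error only. The deposited table holds CPM and no counts, and the count tests of edgeR or DESeq2 were not run on the estimated reads.

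Values were taken as log2(CPM + 0.5) and fitted for the 9 libraries together with limma 3.58.1 in R 4.3.3 (empirical Bayes with a trend, no block), with Benjamini-Hochberg adjustment over 14670 genes and a threshold of 0.05. Contrasts were *Fzd3* mutant minus control, *Celsr3* mutant minus control and *Fzd3* minus *Celsr3* mutant. P values measure only the spread between these samples. Well-expressed genes without overlap had a mean of at least 10 CPM over the 6 control and *Fzd3* mutant libraries, an adjusted P under 0.05 and all 3 mutants on the same side of all 3 controls. The 54 gene lists, described by counts and medians and without a set test, and the members were chosen with earlier results of these data known. The samples, comparisons, rules and alternatives were fixed before these values were computed, except where stated, but with the same earlier results known, so they are not independent of the data.

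Genes were named by rule: *Fzd3* and *Celsr3*; the 15 largest falls and 15 largest rises among well-expressed genes without overlap, without Notch ligands, Wnt genes, predicted genes, clones and pseudogenes; in each list the passing gene with the largest fall, that with the largest rise and the most abundant gene; the 5 most abundant well-expressed genes without overlap in each direction; and the 2 predicted genes or pseudogenes with the largest change in each direction. Some of these are given by counts only. Symbols were matched to GENCODE M21 for 14406 genes, 13773 by symbol and 633 by an older symbol. Promoters were read from RefSeq on GRCm38.p6. Alternatives were other pseudocounts, scalings and filters, GC content and length regressed out, a replicate block, a fit of 6 libraries, other variance models, *Xist* as a covariate and each library left out. The calculation was tested on simulated data. Tables were made in Python 3.11.15.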

Additional observations from a re-analysis of the deposited data

How the results depend on the processing

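Of 179 named genes with alternatives, 152 passed the test, of which 111 kept their call and direction in each of 18 or 19 settings and 1 reversed: *mt-Nd3* had a log2 change of 0.29, and -0.002669 with GC content and length regressed out. Counts of genes that fell and rose in *Fzd3* mutants stayed within 1.5 times their values with every library left out, at 1481 to 2120 lower and 1479 to 2159 higher, and for well-expressed genes without overlap at 1230 to 1778 and 1002 to 1442. With replicate number as a block, 1718 fell and 1911 rose against controls, and 918 were lower and 1183 higher in *Fzd3* than in *Celsr3* mutants. Correlations of control and *Fzd3* mutant libraries with the same number, after each group's mean was taken out, were -0.0697, -0.154 and -0.199. Other pairs gave -0.0935 to 0.188. Libraries with the same number were thus no more alike, but 3 libraries a group cannot show whether litters or batches were shared. Pairing of *Fzd3* with *Celsr3* mutants was not checked. Of 16 list medians in 304 comparisons, 15 values moved by more than the spread between replicates. The deep layer median of 0.03, which is within that spread, changed sign, running from -0.03 to 0.06 with 1 library left out. With GC content and length regressed out the medians were 0.11 for the postsynaptic density, -0.17 for cytosolic ribosomal proteins and -0.18 for splicing factors. Over libraries with *Xist* above 100 CPM, a setting chosen after seeing the data, they were -0.73 for intermediate progenitors and 0.14 for the postsynaptic density. With a mean of at least 5 CPM they were -0.67 for the Hedgehog pathway and 0.29 for microglia, where fewer genes were tested. With 1 library left out, medians ran from -0.49 to -0.38 for DNA replication, 0.12 to 0.21 for the postsynaptic density, -0.48 to -0.33 for radial glia, 0.40 to 0.57 for receptors and -0.73 to -0.51 for intermediate progenitors. Counts and medians of small lists also moved by over 1.5 times in settings not named beside them. The cause was not tested for the other settings. Count-based tests were not run. Libraries of 3 a group, of unknown litter and with *Xist* absent from 1 control and from no *Fzd3* mutant, limit all calls, and genes with near-identical copies cannot be resolved.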
